A study of Mus musculus with 2 samples.

Results

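The nuclear genes that encode subunits of the oxidative phosphorylation complexes were followed across 7 groups of cells in the E14.5 mouse pancreas. They were taken as all gene symbols of both count tables that begin with Nduf followed by a, b, c, s or v and a digit, Cox4 to Cox8 followed by a, b or c, Atp5 or Uqcr, plus Sdha, Sdhb, Sdhc and Sdhd, without symbols that contain -ps. This gave 82 of 25507 symbols: 37 of complex I, 4 of complex II, 8 of complex III, 16 of complex IV and 17 of complex V. The pattern reads symbols, so it leaves out Cox4i1, Cox4i2, Ndufab1, Cyc1 and Cycs, which belong to the same machinery. It takes in Atp5s, a coupling factor, and Atp5sl, which GENCODE M21 names Dmac2. Both are counted with complex V by their symbols alone. The cells came from wild-type mouse embryos in 2 inDrop libraries, here called library 1 and library 2, and had been flow-sorted for low and high Ngn3eGFP, a fluorescent reporter of Neurog3. inDrop captures single cells in droplets and counts RNA molecules by unique molecular identifiers (UMIs). The labels name both libraries wild type, give no further allele or treatment, do not say which cell came from which gate, and do not say whether the libraries came from separate animals. The p-values therefore rest only on how differences between groups vary between these 2 libraries, which may be technical. The fit shares its estimate of this spread between all tested genes, so a p-value does not rest on the counts of its own gene alone. A small p-value is thus no measure of how animals vary. Library is a term of the model, so a shift shared by all groups of a library does not enter them.

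Oxidative phosphorylation takes place at the inner mitochondrial membrane. Complexes I and II pass electrons from NADH and succinate to ubiquinone, complex III passes them to cytochrome c, complex IV passes them to oxygen, and complex V uses the proton gradient built by complexes I, III and IV to make ATP. Complex II is encoded wholly in the nucleus and also works in the citric acid cycle, while the other 4 complexes combine nuclear subunits with subunits encoded by the mitochondrial genome. In hormone-secreting islet cells, ATP made in this way is known to couple nutrient supply to secretion.

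Cells were grouped by raw UMIs of marker genes: at least 5 of Spp1 (trunk and duct epithelium), 5 of Neurog3 (endocrine progenitors), 5 of Chgb (a secretory granule protein), 10 of Gcg (glucagon), 20 of Ins1 and Ins2 together (insulin), 5 of Cpa1 (acinar and tip cells) or 2 of Csf1r (macrophages). Cells that passed no threshold, or a combination that fits no group, were left out of the groups. The Csf1r, Cpa1, Ins and Gcg groups excluded each other but could pass the Chgb, Neurog3 or Spp1 threshold. The Chgb and Neurog3 groups excluded these and each other but could pass that of Spp1. Only cells of the Spp1 group passed no other threshold. Of 516 and 1069 cells kept in libraries 1 and 2, the Spp1 group held 97 and 214, the Neurog3 group 86 and 135, the Chgb group 84 and 130, the Gcg group 27 and 44, the Ins group 39 and 99, the Cpa1 group 9 and 85 and the Csf1r group 7 and 35. Median depth was 3232.5 and 2848 UMIs per cell, and 3 barcodes occurred in both libraries. Levels below are in CPM, the UMIs of a gene per 1000000 UMIs of all cells of a group and library summed. The 6 alpha cell genes, Gcg among them, summed to 21241 and 31118 CPM in the Gcg group against at most 2509 in any other group. Gcg itself made 14926 and 24939 of these sums. The list of each group holds the gene that made the group, so such sums are no independent support for its name. The defining genes of other classes were not all absent. Chgb stood at 1894 and 2129 CPM in the Ins group, and Spp1 at 769 and 933 in the Neurog3 group. The Gcg group held 938 and 3275 CPM of the 7 beta cell genes, and 9656 and 9195 of the list Ghrl, Ppy and Pyy. In the Chgb group this list summed to 1933 and 2415 CPM, and the delta cell genes Sst and Hhex to 258 and 2219. The group with which both hormone groups are compared thus held RNA of other hormones, and its libraries differed in the delta cell genes. Of the beta cell genes, Mafa was at 0 in the Gcg group and in the Ins group alike, so it does not set them apart. In the Cpa1 and Csf1r groups of library 1 there were too few cells for a test, so these groups are described only.

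The share of all UMIs held by the 82 genes was lowest in the Spp1 group of the 5 groups compared and higher in the hormone groups. It was 1.21% and 1.17% in the Spp1 group, 1.243% and 1.197% in the Neurog3 group, and 1.29% and 1.27% in the Chgb group, in libraries 1 and 2. The Gcg group had 1.51% and 1.47% and the Ins group 1.42% and 1.46%. Both hormone groups lay above both libraries of the Chgb group, while the Gcg and Ins groups overlapped in range, as did the Spp1 and Neurog3 groups. The exact 95% Clopper-Pearson interval of the Gcg group was 1.44% to 1.58% in library 1 and 1.40% to 1.53% in library 2, which covers counting error only. In the Cpa1 group the share was 1.56% and 1.56%, and in the Csf1r group 1.04% and 1.23%. A share of captured molecules says nothing of the amount of RNA or protein per cell.

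As a mean over the 2 libraries, the log2 ratio of the share was 0.04 ± 0.01 (SD, n = 2) from the Spp1 to the Neurog3 group and 0.07 ± 0.02 from the Neurog3 to the Chgb group. The former turned to -0.012 with marker UMIs counted per 3000 UMIs and to -0.032 without cells that held a cell cycle UMI, so it has no settled direction. It was 0.21 ± 0.01 from the Chgb to the Gcg group and 0.16 ± 0.05 from the Chgb to the Ins group. From the Gcg to the Ins group it was -0.05 ± 0.06, which is within the spread between libraries. One gene, Sdhc, made much of the value of the Gcg group: over the other 81 genes the ratio was 0.10 ± 0.05 from the Chgb to the Gcg group, with 0.14 in library 1 and 0.06 in library 2, and 0.07 ± 0.09 from the Gcg to the Ins group, while that from the Chgb to the Ins group was 0.17 ± 0.04. The shares are sums over the chosen genes and were not tested. With groups paired by library, an exact two-sided permutation test of 2 differences cannot give a p below 0.5. Single cells varied by more than counting alone gives: in the Spp1 group of library 1 the SD between cells was 0.297 percentage points, against 0.185 from counting.

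**Figure D1:**
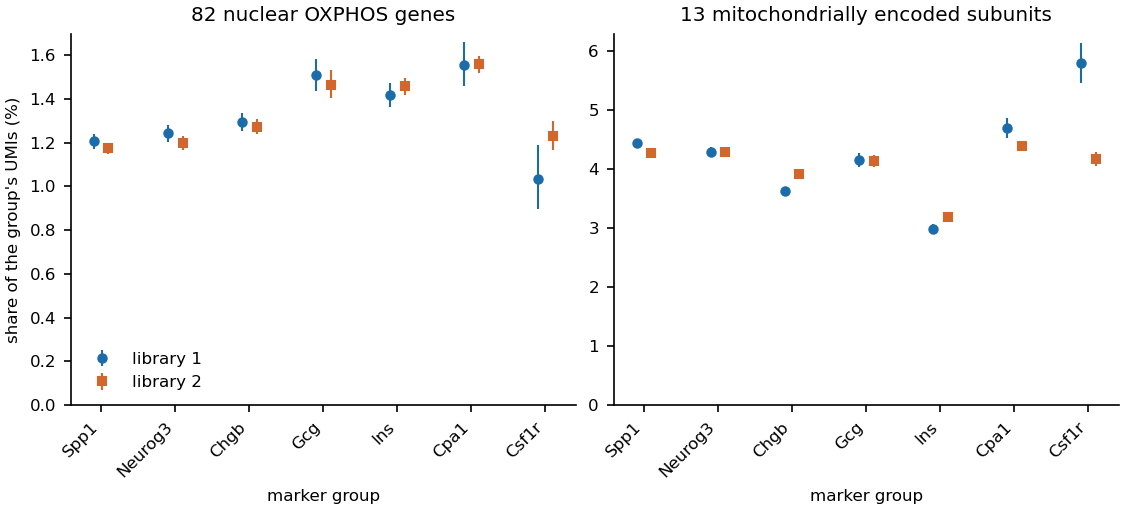
Share of each group's UMIs (%) held by the 82 nuclear genes (left) and by the 13 mitochondrially encoded subunits (right), for the 7 marker groups; circles are library 1, squares library 2, and bars are exact 95% intervals for counting error. The nuclear share is 1.51% and 1.47% in the Gcg group against 1.29% and 1.27% in the Chgb group, and the mitochondrial share is lowest in the Ins group.

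The 13 mitochondrially encoded subunits did not follow the same order. They held 4.44% and 4.27% of UMIs in the Spp1 group, 4.29% and 4.29% in the Neurog3 group, 3.63% and 3.91% in the Chgb group, 4.15% and 4.13% in the Gcg group and 2.98% and 3.18% in the Ins group. The Ins group was thus the lowest of all 7 groups on the mitochondrial side while its nuclear share was among the high ones. Nuclear UMIs per mitochondrial UMI were 0.475 and 0.458 in the Ins group, 0.363 and 0.354 in the Gcg group, and 0.271 and 0.275 in the Spp1 group. For complex V this ratio was 1.31 and 1.34 in the Ins group against 0.656 and 0.765 in the Spp1 group. Ribosomal protein genes moved as well, from 7.47% and 8.47% of UMIs in the Spp1 group to 4.77% and 4.97% in the Ins group. With ribosomal and mitochondrial genes left out of the totals, the log2 ratio of the Chgb to the Neurog3 group was 0.016.

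By complex, the rise of the share from the Chgb to the hormone groups was uneven. Complex V (ATP synthase) held 0.411% and 0.431% of UMIs in the Chgb group and 0.480% and 0.493% in the Ins group, and the 2 groups did not overlap. Complex I held 0.391% and 0.373% in the Chgb group, 0.478% and 0.390% in the Gcg group and 0.422% and 0.459% in the Ins group, with the libraries far apart in the Gcg group. Complex III, at 0.123% and 0.135% in the Chgb group, overlapped with both hormone groups. Complex IV (cytochrome c oxidase) held 0.301% and 0.262% in the Spp1 group and 0.350% and 0.297% in the Neurog3 group, a log2 ratio of 0.22 in library 1 and 0.18 in library 2, although the groups overlapped between libraries.

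Complex II (succinate dehydrogenase) stood apart. It held 0.0399% and 0.0351% of UMIs in the Chgb group and 0.124% and 0.187% in the Gcg group, and between 0.0377% and 0.0608% in the other 5 groups over both libraries. Of all UMIs of the 82 genes, complex II made 8.23% and 12.7% in the Gcg group and 2.76% to 4.93% in the other 6 groups. With Sdhc left out, the other 81 genes held 1.41% and 1.32% of UMIs in the Gcg group against 1.28% and 1.26% in the Chgb group and 1.41% and 1.44% in the Ins group.

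**Figure D2:**
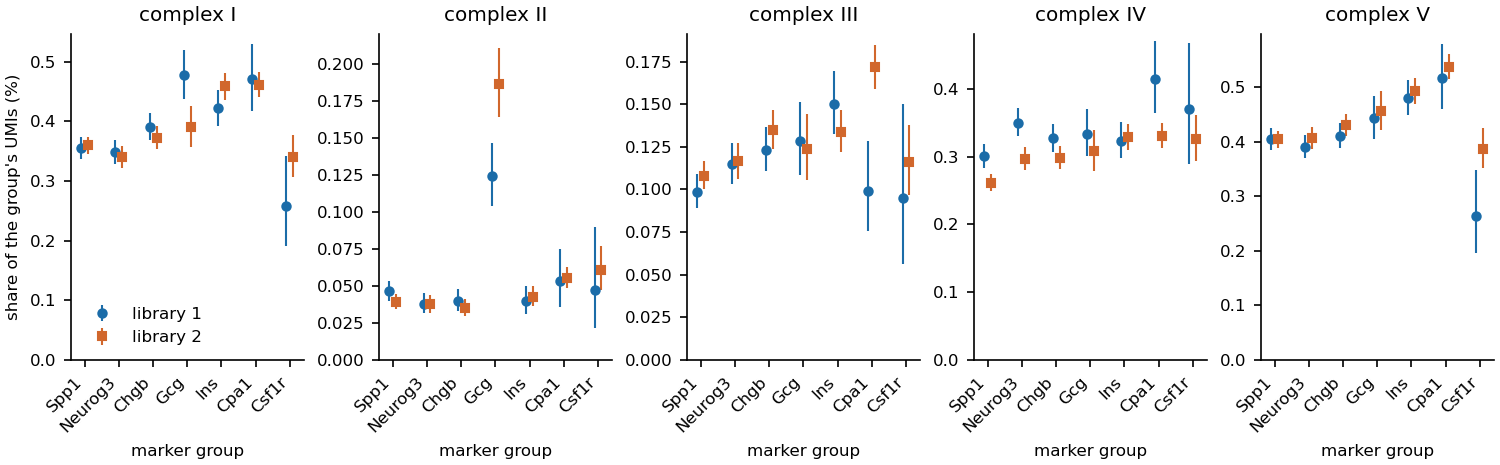
Share of each group's UMIs (%) held by the nuclear genes of complexes I to V, each with its own axis from 0, for the 7 marker groups; circles are library 1, squares library 2, and bars are exact 95% intervals for counting error. Complex II lies at 0.124% and 0.187% in the Gcg group and near 0.04% in the Chgb and Ins groups.

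Sdhc accounted for this. It encodes a membrane subunit that anchors succinate dehydrogenase and helps to bind ubiquinone, and lies on chromosome 1 (171127165 to 171150603, minus strand, GRCm38). Its level was 1009 and 1497 CPM in the Gcg group of libraries 1 and 2, from 113 and 202 UMIs. It was 101 and 108 in the Spp1 group, 91.7 and 106 in the Neurog3 group, 124 and 139 in the Chgb group, and 57.4 and 142 in the Ins group. Both libraries of the Gcg group lay far above every other group, and the Spp1, Neurog3, Chgb and Ins groups were not in a stable order, since the Ins group was the lowest in library 1 and the highest of these 4 in library 2. The Cpa1 group had 257 and 165 CPM and the Csf1r group 52.8 and 145, the former from 15 UMIs and the latter from 1 UMI in library 1.

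Sdhc was 9.82-fold higher in the Gcg than in the Chgb group (log2 fold change 3.30 ± 0.23 SE, adjusted p = 4.6e-20), by edgeR's quasi-likelihood test with Benjamini-Hochberg adjustment over all 10033 genes tested. Against the Gcg group, the Ins group was 11.3-fold lower (log2 fold change -3.50 ± 0.25, adjusted p = 5.2e-20). Libraries 1 and 2 taken singly gave log2 differences of 3.04 and 3.48 for the first comparison and -4.04 and -3.34 for the second, from levels scaled by the TMM factors of the fit, which the CPM above are not. These comparisons share the Gcg group. Sdhc was the only one of 74 tested members called in either comparison, where 0.738% of all tested genes were called higher and 0.668% lower in the Gcg against the Chgb group, and 1.97% higher and 1.19% lower in the Ins against the Gcg group. At an unadjusted p under 0.05, 8 members were higher and 3 lower in the former, against 475 and 540 of all 10033 genes. In the latter 3 were higher and 3 lower, against 752 and 541. Among all tested genes Sdhc ranked 8 by log2 fold change and 2 by p in the first comparison. DESeq2 gave adjusted p = 2.7e-24 and 2.1e-23. The gene was picked out with earlier results of these data known.

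The other 3 subunits of complex II did not pass the test in these comparisons. Sdha, the flavoprotein that oxidises succinate, had 152 and 200 CPM in the Gcg group and 161 and 86.4 in the Chgb group. Sdhb, the iron-sulfur subunit, had 44.7 and 96.3 against 40.3 and 43.2. Sdhd, which forms the membrane anchor together with Sdhc, had 35.7 and 74.1 against 73.8 and 81.6, and was the only one of the 4 below the Chgb group in both libraries. The Gcg to Chgb log2 fold changes were 0.63 ± 0.33 for Sdha, 0.83 ± 0.50 for Sdhb and -0.42 ± 0.48 for Sdhd, with adjusted p = 0.533, 0.639 and 0.856. Sdhc made 81.3% and 80.2% of complex II UMIs in the Gcg group, 31.1% and 39.7% in the Chgb group and 14.49% and 33.1% in the Ins group.

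Within cells, Sdhc went with the amount of Gcg RNA, in classes of Gcg UMIs chosen after values were seen and given without a test. Among cells with 0 Gcg UMIs it stood at 105 and 121 CPM, and among cells with 1 to 4 at 105 and 104. Cells with 10 to 49 Gcg UMIs had 491 and 526, and cells with at least 50 had 1560 and 2378. Library 1 had 15 and 13 cells in the upper classes and library 2 had 25 and 21, and only 2 and 11 cells held 5 to 9 Gcg UMIs. All 13 and 21 cells with at least 50 Gcg UMIs held an Sdhc UMI. In the Gcg group 81.5% and 84.1% of cells held one, at median depths of 4105 and 2813 UMIs, against 26.2% and 30.0% in the Chgb group at 3404 and 3109. At least 5 Sdhc UMIs were found in 12 cells of library 1, of which 12 were in the Gcg group, and in 19 of library 2, of which 16 were.

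Cells with other hormones and fewer than 5 Gcg UMIs lacked the high level. With at least 10 UMIs of Pyy (peptide YY), 43 and 109 cells had 111 and 93.6 CPM of Sdhc. With at least 10 of Ghrl (ghrelin), 9 and 24 cells had 66.8 and 75.5, from 2 and 6 UMIs. With at least 10 of Sst (somatostatin), 5 and 31 cells had 156 and 128, and with at least 10 of Ins1, 39 and 100 cells had 58.2 and 140. The high level was thus measured in cells defined by Gcg, in which the list Ghrl, Ppy and Pyy was also high.

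No exon of Sdhc overlaps that of another gene in GENCODE M21, and no other annotated transcript was at least 95% identical to its last 300 bases over 100 bases or more. Cfap126 lies 197 bases away on the plus strand. In the Gcg group it had 62.5 and 22.2 CPM, from at most 7 UMIs.

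From the Spp1 to the Neurog3 group, 5 of 74 tested members rose and 0 fell. Among all tested genes 5.16% were called higher and 3.59% lower, so the member counts are close to the background. At an unadjusted p under 0.05, 7 members were higher and 2 lower, against 1000 and 873 of all 10033 genes. DESeq2 called 1 member higher and 0 lower, against 202 and 104 of all genes. The median log2 fold change was 0.02 over the members and 0.01 over all genes, and that of the members was -0.03 when scaled by total UMIs. In complex III, Uqcrh, the hinge protein that helps bind cytochrome c1, rose from 126 and 122 CPM to 199 and 217 (1.75-fold, log2 0.80 ± 0.26, adjusted p = 0.0313, edgeR). It lies on chromosome 4 (116066965 to 116075071), and both libraries of the Neurog3 group lay above both of the Spp1 group.

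In complex IV, Cox7a2l and Cox7c rose. Cox7a2l, also known as a factor that joins complexes III and IV into supercomplexes, lies on chromosome 17 (83501918 to 83517330) and had 194 and 269 CPM in the Spp1 group against 389 and 379 in the Neurog3 group (1.69-fold, adjusted p = 0.00616, edgeR). Cox7c, a small structural subunit on chromosome 13 (86044816 to 86046904), had 444 and 366 against 629 and 564 (1.53-fold, adjusted p = 0.00955). In neither gene did the groups overlap. Non-overlap was common, though: of the 82 members, 18 were higher and 19 lower in both libraries of the Neurog3 group than in both of the Spp1 group. It was not counted over all genes and so has no background. Non-overlap is therefore no support for a call, neither for Uqcrh above, nor here, nor for the genes below.

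In complex V, Atp5l and Atp5f1 rose. Atp5l, subunit g of the membrane sector, lies on chromosome 9 (44912557 to 44920742) and had 202 and 223 CPM in the Spp1 group against 370 and 379 in the Neurog3 group (1.82-fold, log2 0.86 ± 0.18, adjusted p = 0.000216, edgeR). Atp5f1, subunit b of the stalk that holds the catalytic head in place, lies on chromosome 3 (105942698 to 105960099) and had 159 and 179 against 266 and 290 (1.70-fold, adjusted p = 0.0121). The groups did not overlap in either gene. The catalytic subunit Atp5a1, the complex V member with the most UMIs, had 605 and 576 against 462 and 428, and did not pass (log2 -0.36 ± 0.16, adjusted p = 0.164). In complex I, 0 of 36 tested genes were called by edgeR or DESeq2. At an unadjusted p under 0.05, 1 was higher and 1 lower, against 1000 and 873 of all 10033 genes.

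Of these 5 calls only Atp5l was also made by DESeq2 (adjusted p = 0.0184), by edgeR without the library as a block, with doubled marker thresholds or with all 7 groups in the fit, so the call of the other 4 depends on these choices. Cell cycle RNA differed between the groups: Mki67, Top2a, Ccnb1, Cdk1 and Pcna summed to 784 and 1017 CPM in the Spp1 group and 392 and 249 in the Neurog3 group, and with cells that held a UMI of the first 4 left out, a choice made after seeing the data, Cox7c was called higher and Atp5a1 lower and the other 4 were not called.

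From the Neurog3 to the Chgb group, 3 of 74 members rose and 1 fell, where 4.36% of all genes were called higher and 6.68% lower. Neither member count is thus above the background. The medians were 0.02 for the members and -0.00 for all genes. Atp5l rose again, from 370 and 379 to 574 and 658 CPM (1.54-fold, log2 0.63 ± 0.17, adjusted p = 0.00511, edgeR), and was 598 and 593 in the Gcg group and 562 and 668 in the Ins group. Its level thus lay between 562 and 668 in all 6 sums of the Chgb, Gcg and Ins groups and at or below 379 in all 4 sums of the Spp1 and Neurog3 groups. The Cpa1 group, at 274 and 277, was also low.

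Cox7c fell from 629 and 564 to 386 and 334 CPM (1.77-fold lower, log2 -0.83 ± 0.18, adjusted p = 0.000321, edgeR), which overlaps with the Spp1 group. It was the member called in this comparison by edgeR under every alternative run and by DESeq2 (adjusted p = 0.0253). Cox7c and Atp5l therefore differed in the same direction between the Spp1 and Neurog3 groups and in opposite directions between the Neurog3 and Chgb groups.

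In complex I, Ndufs8 and Ndufv3 rose from few UMIs. Ndufs8, an iron-sulfur subunit of the electron path on chromosome 19 (3908863 to 3912774), had 9.49 and 17.2 CPM in the Neurog3 group, from 3 and 7 UMIs, against 57.1 and 40.8 in the Chgb group (log2 1.68 ± 0.56, adjusted p = 0.0383, edgeR). Ndufv3, an accessory subunit of the NADH-oxidising module on chromosome 17 (31520115 to 31531331), had 41.1 and 19.7 against 60.4 and 86.4 (log2 1.27 ± 0.43, adjusted p = 0.0415), with single-library log2 differences of 0.45 and 1.99. Neither was called by DESeq2, without the block, without the filter on low counts or with doubled thresholds, and Atp5l was not called by DESeq2 (adjusted p = 0.101), without the block or with all 7 groups in the fit.

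**Figure D3:**
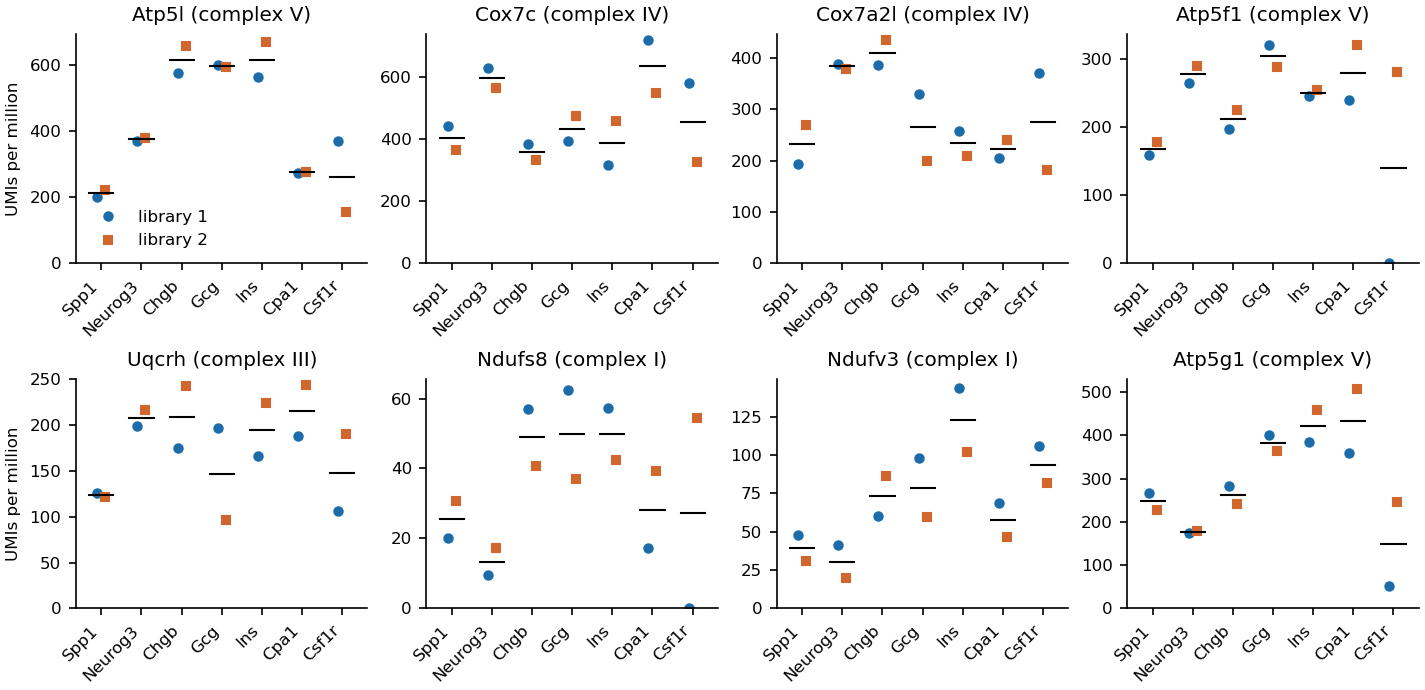
CPM of the 8 members other than Sdhc that passed the test in at least 1 comparison, in the 7 marker groups, each with its own axis from 0; circles are library 1, squares library 2, and black lines are the mean of the 2 libraries. Atp5l is at 562 to 668 in the Chgb, Gcg and Ins groups, and Cox7c is at 629 and 564 in the Neurog3 group against 386 and 334 in the Chgb group.

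The 250 bases before the RefSeq start site (GRCm38.p6) are shown for the 3 members that rose from the Neurog3 to the Chgb group, to compare what lies upstream of genes that moved together. Capitals mark matches, on either strand, to letters of factors known for mitochondrial genes: GCGCATGC for NRF1, CCGGAAG for GABP, AAGATGGC for YY1, AAGGTCA for the estrogen-related receptors (ERRA) and GGGCGG for SP1. The windows are chr9:44920743-44920992 for Atp5l and chr19:3912775-3913024 for Ndufs8, both on the minus strand, and chr17:31519865-31520114 for Ndufv3 on the plus strand.
Atp5l: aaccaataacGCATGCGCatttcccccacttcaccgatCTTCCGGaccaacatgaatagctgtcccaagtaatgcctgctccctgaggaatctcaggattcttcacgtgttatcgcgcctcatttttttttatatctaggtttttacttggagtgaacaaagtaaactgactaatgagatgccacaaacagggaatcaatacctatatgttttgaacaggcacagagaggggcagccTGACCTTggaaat
Ndufs8: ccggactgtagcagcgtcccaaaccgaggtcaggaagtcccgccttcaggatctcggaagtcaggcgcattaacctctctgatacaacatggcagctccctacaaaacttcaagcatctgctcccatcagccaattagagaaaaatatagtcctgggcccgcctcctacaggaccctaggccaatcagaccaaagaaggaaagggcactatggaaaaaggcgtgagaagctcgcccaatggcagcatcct
Ndufv3: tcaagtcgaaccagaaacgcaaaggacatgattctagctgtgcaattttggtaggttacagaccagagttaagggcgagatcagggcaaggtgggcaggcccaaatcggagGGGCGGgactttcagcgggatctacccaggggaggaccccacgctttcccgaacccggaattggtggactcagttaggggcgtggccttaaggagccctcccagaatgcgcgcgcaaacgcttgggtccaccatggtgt
The Atp5l window holds matches to NRF1, GABP and ERRA, that of Ndufv3 holds 1 match to SP1, and that of Ndufs8 holds none of the 5, so the 3 windows share no match. A match is a run of letters and not a measured site.

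The RefSeq table held 75 windows for 69 of the members, and 10.7% of them had the NRF1 letters, against 2.26% of all 32851 windows. For GABP the shares of windows were 16.0% and 6.91%, for ERRA 6.67% and 4.08%, for YY1 2.67% and 1.56% and for SP1 33.3% and 32.7%. None of the 5 strings contains another. The Uqcrh window (chr4:116075071-116075320, minus strand) held 1 GABP match, 10 bases before the start site.

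From the Chgb to the Ins group, 1 of 74 members rose and 1 fell, where 2.03% of all genes were called higher and 0.927% lower. The median log2 fold change was 0.32 over the members and -0.00 over all genes, and 61 of 74 members (82.4%) had a value above 0 against 49.8% of all tested genes. At an unadjusted p under 0.05, 15 of 74 members were higher and 1 lower, against 663 and 498 of all 10033 genes. DESeq2 called 0 and 0 members, against 82 and 28 of all genes. The medians by complex were 0.32 for I, 0.42 for II, 0.21 for III, 0.29 for IV and 0.38 for V. Scaling by total UMIs moved the median of all genes by -0.11, and that of the members to 0.21, which leaves the difference between both medians at 0.32. It also moved the calls over all genes from 204 higher and 93 lower to 167 and 135.

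Atp5g1 was the member that rose. It encodes the c subunit of the ATP synthase rotor, lies on chromosome 11 (96068852 to 96075670), and had 282 and 243 CPM in the Chgb group against 384 and 459 in the Ins group (1.78-fold, log2 0.83 ± 0.21, adjusted p = 0.00757, edgeR). Its level in the Gcg group, 402 and 363, also lay above both libraries of the Chgb group. The groups with the lowest levels were the Neurog3 group, at 174 and 180, and library 1 of the Csf1r group, with 1 UMI.

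Cox7a2l was the member that fell. It went from 386 and 435 CPM in the Chgb group to 258 and 210 in the Ins group (1.66-fold lower, log2 -0.73 ± 0.22, adjusted p = 0.0441, edgeR), and was at 330 and 200 in the Gcg group. It was thus high in both libraries of the Neurog3 and Chgb groups and lower in both libraries of the Spp1, Gcg, Ins and Cpa1 groups. Between the Chgb and Gcg groups, however, Cox7a2l was called neither in the main fit nor in any of the 12 other settings with a test. Without the block, by DESeq2, with all 7 groups in the fit or without cells with a cycle UMI, neither Atp5g1 nor Cox7a2l was called (DESeq2 adjusted p = 0.170 and 0.609). Cox7a2l was also not called with halved thresholds, with DESeq2's size factors in edgeR or without ribosomal and mitochondrial genes. Other members with values above 0 that did not pass were Atp5j, a coupling factor of ATP synthase (0.75 ± 0.24, adjusted p = 0.0744), Cox8a, the complex IV member with the most UMIs (0.40 ± 0.15, adjusted p = 0.158), and Ndufs7, an iron-sulfur subunit next to the ubiquinone site of complex I (1.09 ± 0.46, adjusted p = 0.269).

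In the Gcg against the Chgb group the median was 0.22 over the members and -0.02 over all genes, and 55 of 74 members had a value above 0 (74.3%, against 48.8% of all genes). By complex it was 0.28 for I, 0.12 for IV, 0.20 for V and -0.03 for III. This comparison and the last share the Chgb group, so the like direction of both medians is not independent. The members with the largest change in complexes I, III, IV and V, among those with a mean of at least 50 CPM, did not pass. They were Ndufs7 (1.40 ± 0.51, adjusted p = 0.231), Uqcr10 (0.54 ± 0.35, adjusted p = 0.665), Cox7b (0.75 ± 0.28, adjusted p = 0.259) and Atp5j (0.62 ± 0.27, adjusted p = 0.375). In the Ins against the Gcg group the medians were 0.12 and 0.03.

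**Figure D4:**
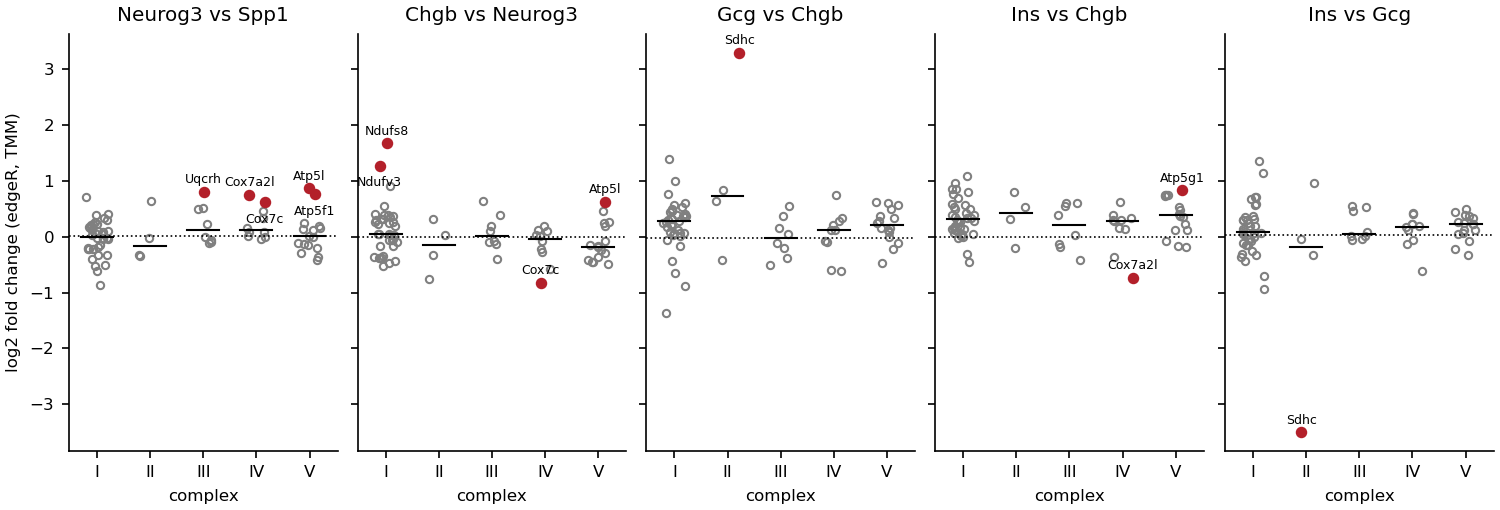
log2 fold change of each of the 74 tested members by complex in the 5 comparisons; filled points passed the test (adjusted p below 0.05), open points did not, black bars are the median of a complex and the dotted line is the median of all 10033 tested genes. Sdhc lies at 3.30 in the Gcg against the Chgb group and at -3.50 in the Ins against the Gcg group, and the bulk of the members lies above the dotted line in the Ins against the Chgb group.

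To find single genes that left the course of the others, the fit was repeated with each sum scaled to its total of the 82 genes, so that a value is relative to that total. Between the Spp1 and Neurog3 groups 4 of 74 tested members departed, where 8.58% of all genes did in either direction. The number of members is thus not above the background. They were Atp5l (log2 0.78), Atp5f1 (0.68), Cox7a2l (0.67) and Cox7c (0.53), all upward. Of all 10033 genes 425 departed upward and 436 downward. Between the Neurog3 and Chgb groups 4 of 74 departed (background 11.0%), Atp5l, Ndufs8 and Ndufv3 upward and Cox7c downward (log2 -0.80 ± 0.18, adjusted p = 0.000479, edgeR). Of all 10033 genes 459 departed upward and 641 downward, so the members were not above the background in either direction.

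Between the Chgb and Gcg groups 3 of 74 tested members departed, 1 upward and 2 downward (background 2.16% in either direction). Of all 10033 genes 45 departed upward and 172 downward. Their median was -0.27, so this scale itself placed most genes below 0. Sdhc lay 3.03 above the total, while Cox7a2l (-0.87 ± 0.24, adjusted p = 0.0326) and Atp5b (-0.73 ± 0.21, adjusted p = 0.0373, edgeR) lay below it. Atp5b, the catalytic beta subunit of ATP synthase, is on chromosome 10 (128083273 to 128090391) and had 322 and 356 CPM in the Gcg group against 463 and 507 in the Chgb group. The groups did not overlap, but on the scale of all genes the difference did not pass (adjusted p = 0.383, edgeR), and neither did that of Cox7a2l. Sdhc is itself part of the total it is compared with. Its high level raises that total in the Gcg group, which lowers the relative values of Cox7a2l and Atp5b there. The fit was not run with a total without Sdhc. Between the Chgb and Ins groups 1 of 74 members departed (background 4.0%), Cox7a2l at -1.01 ± 0.22 (adjusted p = 0.00113, edgeR). Of all 10033 genes 127 departed upward and 274 downward there, with a median of -0.28. Between the Gcg and Ins groups 1 of 74 departed, Sdhc at -3.53 (background 3.18%). In neither of these comparisons was the number of members above the background.

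Of 10 other settings, DESeq2 among them, Sdhc departed in all 10 in both comparisons of the Gcg group, and so did Cox7c between the Neurog3 and Chgb groups and Cox7a2l between the Chgb and Ins groups. Between the Chgb and Gcg groups Atp5b departed in 1 of the 10, the one with all barcodes kept, and Cox7a2l in 6, without DESeq2, the fit without the block, that with all 7 groups and that without cells with a cycle UMI. Atp5l departed in 9 between the Spp1 and Neurog3 groups and in 8 between the Neurog3 and Chgb groups. The other departures were found in 2 (Ndufs8) to 5 (Cox7a2l between the Spp1 and Neurog3 groups) of the 10.

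Several subunits exist in forms encoded by separate genes, some known for expression in heart and skeletal muscle or testis. The muscle or testis forms were near the limit of detection: over the 7 groups Cox6a2 had 9 UMIs, Cox7a1 29, Cox7b2 6, Cox8b 3, Cox8c 19 and Cox6b2 62, and Ndufa4l2, known to respond to low oxygen, had 7. These 7 genes and Atp5s (58 UMIs) were the 8 members that did not pass the filter on low counts. Cox7a1 was seen with 5 and 6 UMIs in the Cpa1 group and at most 5 in any other sum. Of the forms found in most tissues, Cox6a1 had 357 to 511 CPM over the 5 groups compared apart from the Neurog3 group of library 2, at 320. Cox7a2 had 194 and 152 in the Spp1 group and 310 and 289 in the Ins group. Ndufa4, counted here with complex I by its symbol and known as a subunit of complex IV, had 268 and 267 in the Gcg group and 463 and 454 in the Cpa1 group.

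The 3 genes for the ATP synthase c subunit, whose mature proteins are the same, went different ways. Atp5g1 had 174 and 180 CPM in the Neurog3 group, 402 and 363 in the Gcg group and 384 and 459 in the Ins group. Atp5g2 had 608 and 554 in the Spp1 group, 538 and 482 in the Neurog3 group, 453 and 396 in the Chgb group and 339 and 363 in the Gcg group. Atp5g3 had 245 and 334 in the Chgb group and 379 and 326 in the Ins group, and 822 and 523 in the Cpa1 group. Of the 3, only Atp5g1 was called in any comparison, and the differences between the genes were not tested. Outside the symbol rule, Cox4i1, the common form of complex IV subunit 4, fell from 516 and 534 in the Neurog3 group to 396 and 375 in the Chgb group (log2 -0.54 ± 0.17, adjusted p = 0.0228, edgeR, but 0.223 in DESeq2), and Cox4i2 was at 0 to 11.5.

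Other genes of the pathway were read from fixed lists. Of 12 tested mitochondrially encoded subunits, 7 were lower in the Chgb than in the Neurog3 group and 0 higher, where 6.68% of all genes were called lower. At an unadjusted p under 0.05, 8 were lower and 0 higher, against 1187 and 951 of all 10033 genes. The first 3 by p were mt-Nd1 (-0.48 ± 0.09), mt-Co3 (-0.45 ± 0.09) and mt-Atp6 (-0.36). In the Gcg against the Chgb group 3 were higher (mt-Nd2, mt-Co3 and mt-Nd1) and 0 lower, where 0.738% of all genes were called higher. In the Ins against the Gcg group 8 were lower and 0 higher, where 1.19% of all genes were called lower. From the Chgb to the Ins group 0 were called by edgeR or DESeq2. At an unadjusted p under 0.05, 0 were higher and 5 lower there, against 663 and 498 of all 10033 genes. DESeq2 called 1, 1 and 1 in the former 3 comparisons, against 316 lower, 31 higher and 58 lower of all 10033 genes. From the Gcg to the Ins group the 12 mitochondrial values had a median of -0.32. The 74 nuclear values had a median of 0.12, or 0.06 when scaled by total UMIs, with 0 members called higher and 1 lower, so the nuclear genes had no settled direction there.

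Of 34 tested assembly factors of the complexes, 1 passed in any comparison, Coa5, a factor for complex IV that was higher in the Chgb than in the Neurog3 group (log2 1.12 ± 0.36, adjusted p = 0.0278, edgeR, but 0.242 in DESeq2), where 4.36% of all genes were called higher. Of 21 genes of the citric acid cycle and pyruvate entry, 2 were higher in the Neurog3 than in the Spp1 group, where 5.16% of all genes were, and 4 were lower in the Chgb than in the Neurog3 group, where 6.68% were. DESeq2 called 1 and 2 of these, against 202 higher and 316 lower of all 10033 genes. In the Ins against the Chgb group 1 was higher by either tool, where 2.03% of all genes were called higher by edgeR and 82 of 10033 by DESeq2. Mpc1, a subunit of the carrier that brings pyruvate into mitochondria, had 68.1 and 87.7 CPM in the Spp1 group, 193 and 219 in the Neurog3 group, 33.6 and 31.2 in the Chgb group and 91.8 and 116 in the Ins group. It was higher in the Neurog3 than in the Spp1 group, lower in the Chgb than in the Neurog3 group and higher in the Ins than in the Chgb group (log2 1.44, -2.77 and 1.81, adjusted p = 0.000119, 1.5e-09 and 0.00146, edgeR). These comparisons share groups and are not independent. In the Gcg group Mpc1 had 35.7 and 59.3 CPM and was not called against the Chgb group.

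Of 16 carriers, pores and cristae genes, 1 was higher in the Neurog3 than in the Spp1 group by edgeR and by DESeq2, where 5.16% of all genes were by edgeR. This was Slc25a5, which exchanges ADP for ATP and went from 235 and 220 to 405 and 413 (log2 0.90 ± 0.17, adjusted p = 8.3e-05, edgeR). By edgeR it rose further in the Chgb group, to 722 and 603 (adjusted p = 0.00822), and fell from 875 and 926 in the Gcg group to 643 and 445 in the Ins group (adjusted p = 0.00870), but DESeq2 called neither (adjusted p = 0.162 and 0.137). In the Chgb against the Neurog3 group 2 genes of this list were higher and 1 lower, where 4.36% and 6.68% of all genes were. DESeq2 called 0 and 0 of the list, against 192 and 316 of all 10033 genes. Beside Slc25a5 these were Minos1, which helps to shape the cristae (187 and 143 CPM against 376 and 274, log2 0.88 ± 0.23, adjusted p = 0.00338, edgeR), and Apool, a cristae protein that was lower (34.8 and 61.5 against 10.1 and 9.60, the latter from 3 and 4 UMIs, log2 -2.37 ± 0.67, adjusted p = 0.00902, edgeR). In the Ins against the Gcg group Slc25a5 was the 1 gene called lower, where 1.19% of all genes were. In the other 2 comparisons 0 of the list were called by either tool. At an unadjusted p under 0.05, 2 were higher and 0 lower in the Gcg against the Chgb group, against 475 and 540 of all 10033 genes. In the Ins against the Chgb group 2 were higher and 3 lower, against 663 and 498.

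Of 76 mitochondrial ribosomal proteins between 0 and 2 were called per comparison and direction by edgeR, where 0.668% to 6.68% of all genes were, and 0 by DESeq2. Of 9 tested regulators of mitochondrial genes 0 were called in any comparison by edgeR or DESeq2. At an unadjusted p under 0.05, 0 were higher and 1 lower in the Gcg against the Chgb group and in the Ins against the Chgb group. Of all 10033 genes 475 were higher and 540 lower in the former, and 663 and 498 in the latter.

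Some levels are uncertain because reads can be split between copies or overlapping genes. In GENCODE M21, 31 of the 82 members have a copy at least 95% identical over 100 of the last 300 bases, among them Atp5l with 12 copies, Cox7c with 4, Atp5g1 with 3, and Uqcrh, Atp5f1, Ndufv3 and Atp5b with 1 each. Of the copies of Atp5l only Gm5426 has a row in the count tables, with 0 to 34.4 CPM. Exons of 27 members overlap another gene, 24 of them one on the other strand, which includes Atp5l (Gm30934) and Atp5f1 (Wdr77 and Gm42890). Cox7a2l, Ndufs8, Sdha, Sdhb, Sdhc and Sdhd have neither.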

How the data were processed

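For each library the authors deposited a table of UMI counts, unnormalised, over 25507 symbols. GRCm38 is the build per the submitters' processing notes. Aligner, counter, annotation and strand setting were not given in the sources used here. Islets were isolated and sorted, and RNA from inDrop droplets was amplified linearly as in CEL-Seq, per the labels' protocols. The reporter was not analysed here.

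Cells were kept with at least 1000 UMIs, 500 genes and at most 20% mitochondrial UMIs (528 of 535 and 1081 of 1100 barcodes), and 12 and 12 Scrublet doublets (scanpy 1.11.5) were removed. Counts were summed per library and marker group, over 111954 to 649807 UMIs in the 10 sums of the 5 groups compared. One quasi-likelihood model held all of them (edgeR 4.0.16 under R 4.3.3), scaled by TMM, after the default filter, with terms for group and library and 4 residual degrees of freedom. Its estimate of a gene's spread is moderated by that of all tested genes, so a p-value rests on more than these 4. The 8 marker genes were left out, and Benjamini-Hochberg adjustment over 10033 genes was used at 0.05. Library is a block because both groups of a comparison come from the same libraries. The SE is the log2 fold change over the root of its F statistic. Single-library differences use CPM scaled by the TMM factors of that model, plus a pseudocount of 1. DESeq2 1.42.0 was the second tool. The code was tested on simulated data.

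Levels are counts per 1000000 UMIs of a sum (CPM) and are not scaled by gene length, so genes are not ranked by level. Intervals cover counting error only. Named were the members called with one sign in both libraries, per complex the member with the highest level and the largest change, members departing from the total, Sdhc and the isoform pairs, which made 53 results for 24 genes. Not all are given in the text. Members, groups and lists were chosen with earlier results of these data known. Positions of 81 members come from GENCODE M21, and windows before start sites from RefSeq (GRCm38.p6). Copies were found with blastn 2.17.0.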

Additional observations from a re-analysis of the deposited data

How the results depend on the processing

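With 1 library a group has no residual degrees of freedom, so leaving out a library gives values without a test, and counts of called or departing members have none. The calls of Sdhc in both comparisons of the Gcg group, and of Cox7c between the Neurog3 and Chgb groups, kept their direction and their side of the threshold in all 12 settings with a test. Among the named genes, 28 values changed sign and none of them was a call. Leaving out cells with a cell cycle UMI, leaving marker genes out of the totals and leaving Sdhc out of the members were chosen after seeing the data. The cause of the changes below was not tested.

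Without the replicate block, that is without library as a term, 1, 1, 1, 0 and 1 members were called in Neurog3 against Spp1, Chgb against Neurog3, Gcg against Chgb, Ins against Chgb and Ins against Gcg, in place of 5, 4, 1, 2 and 1, and 1, 1, 1, 1 and 1 departed from the total of the 82 genes in place of 4, 4, 3, 1 and 1. DESeq2 called 1, 1, 1, 0 and 1, and 1, 1, 1, 1 and 1 departed. With all 7 groups in the fit 1, 1, 1, 0 and 1 were called, and 1, 2, 1, 1 and 1 departed. Without cells with a cycle UMI 2, 2, 1, 0 and 1 were called, and 1, 2, 1, 1 and 1 departed. Doubled marker thresholds gave 1 and 2 calls in the first 2 comparisons, and 2 and 2 departures. Halved thresholds gave 3 calls and 2 departures in the first comparison and 2 calls in Gcg against Chgb. With no filter on low counts 2 departed in the first comparison, and 2 were called and 2 departed in the second. In Ins against Chgb, DESeq2's size factors in edgeR gave 1 call, and so did leaving out ribosomal and mitochondrial genes.

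The log2 ratio of the share from Spp1 to Neurog3, 0.036, was -0.012 with marker UMIs per 3000 UMIs, -0.032 without cells with a cycle UMI, 0.0074 with halved thresholds, 0.0076 as a mean over cells, 0.051 with cells thinned to 1500 UMIs and 0.029 to 0.043 with each library alone. From Neurog3 to Chgb, 0.072, it was 0.10 with marker UMIs per 3000, 0.016 without ribosomal and mitochondrial genes, 0.10 as a mean over cells, 0.11 in thinned cells and 0.057 to 0.087 by library. From Chgb to Gcg, 0.21, it was 0.24 with doubled thresholds, 0.25 without cells with a cycle UMI, 0.24 in thinned cells, 0.23 without marker genes, 0.10 without Sdhc and 0.20 to 0.22 by library. From Chgb to Ins, 0.16, it was 0.22 without marker genes and 0.13 to 0.20 by library. From Gcg to Ins, -0.050, it was 0.067 without Sdhc and -0.092 to -0.0085 by library.

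Log2 fold changes of named genes that changed sign, none of them called, were these. In Neurog3 against Spp1, Ndufa4 went to -0.087 with halved and -0.050 with doubled thresholds, -0.12 with marker UMIs per 3000 and -0.064 without cells with a cycle UMI, and was -0.012 to 0.17 by library. Sdhc went to 0.23 with marker UMIs per 3000 and was -0.075 to 0.014 by library, Sdhb went to -0.011 with halved thresholds, Uqcrb was -0.052 to 0.028 and Cox8a -0.055 to 0.046 by library. In Chgb against Neurog3, Uqcrb went to 0.017 with marker UMIs per 3000 and was -0.20 to 0.018 by library, and Cox8a went to -0.053 with doubled thresholds and -0.016 without cells with a cycle UMI. In Gcg against Chgb, Uqcrb went to -0.100 with no filter and -0.0060 with all barcodes and was -0.0016 to 0.11 by library, and Atp5a1 went to -0.080 with no filter and was -0.11 to 0.24 by library. In Ins against Chgb, Ndufa4 was -0.15 to 0.45 by library, Sdhc went to 0.085 without cells with a cycle UMI and was -0.999 to 0.15 by library, and Atp5a1 went to -0.0061 without cells with a cycle UMI. In Ins against Gcg, Uqcrh was -0.16 to 1.26 by library, and Atp5a1 went to -0.020 by total UMIs, -0.059 with halved thresholds and -0.073 without cells with a cycle UMI, and was -0.13 to 0.25 by library. Genes with few UMIs, such as Ndufs8 with 3 and 7 in the Neurog3 group, limit what a call can rest on.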
